A study of Mus musculus with 6 samples.

Results

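The genes described here were *Ifitm1*, *Ifitm2*, *Ifitm3* and *Ifitm6*, which encode interferon-induced transmembrane (IFITM) proteins. They are 4 of the 29097 genes listed for sorted peripheral blood neutrophils and were chosen by their higher values in mice with ligature-induced periodontitis (LIP), the same contrast described below. Their levels and fold changes are therefore given as a description, with no test. All 4 names occurred on a single row each, and all 4 passed the filter on low values, a mean of at least 1 FPKM (fragments scaled to gene length and library total) over the 6 libraries.

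IFITM proteins are small membrane proteins that sit in the plasma membrane and in endosomes and lysosomes, where they make membranes resist fusion with enveloped viruses and so hinder viral entry. Their genes lie in a cluster and are classical targets of type I and type II interferon signaling, in which ligand, receptor and Janus kinases activate STAT and IRF transcription factors. In myeloid cells they are also transcribed without infection, and lipid attachment and ubiquitination of the proteins set where they reside and how fast they are degraded.

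The study asked how periodontitis changes blood cell formation in bone marrow and worsens arthritis, and circulating neutrophils were a part of it. In the LIP group, male C57BL/6 mice aged 8 weeks carried a silk ligature on the teeth for 14 d, and Ctrl mice of the same strain, sex and age carried none. CD45+CD11b+Ly6G+ cells were sorted from blood, and each library was made by Smart-seq2, which amplifies full-length cDNA from small amounts of RNA, from the pooled cells of 5 mice. There were 3 Ctrl and 3 LIP libraries, so that a replicate is a pool and differences between single mice are not visible.

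Total counts were 53059029, 54358483 and 52301060 in Ctrl replicates 1 to 3 and 56504173, 57262379 and 52186555 in LIP replicates 1 to 3. The groups were thus sequenced to similar depth, but their composition differed. The factors of the trimmed mean of M values (TMM), which scale libraries on the bulk of genes, lay between 1.10 and 1.13 in Ctrl and between 0.889 and 0.905 in LIP.

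The composition was followed with lists of cell type markers. All 16 neutrophil markers were detected, and their summed level was 15862.8, 19108 and 17979.6 FPKM in the Ctrl libraries and 54861.5, 58967 and 53918 FPKM in the LIP libraries, a 3.17-fold higher mean in LIP. *S100a9*, a subunit of calprotectin, was the most abundant of them, and all 16 passed the test as higher in LIP (edgeR adjusted p = 8.55e-08 for *S100a9*, log2 fold change 2.03). Erythroid markers went the other way. Their summed level was 180632, 186049 and 186836 FPKM in Ctrl and 20186, 19478 and 19517 FPKM in LIP, with 7 of 7 tested markers lower. *Hba-a1*, an alpha globin gene, was the most abundant over all 6 libraries, though *Hba-a2* led in Ctrl replicate 3. The Ctrl libraries, although sorted on Ly6G, therefore held more globin than neutrophil marker signal. In bulk samples, fewer cells of a type and less RNA per cell cannot be told apart.

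Lymphocyte markers were also lower in LIP. The 8 B cell markers summed to 3326, 3619.98 and 3353 FPKM in Ctrl and to 491, 556 and 548 FPKM in LIP, with *Ighm* the most abundant and 8 of 8 lower. The 8 T cell markers summed to 186, 217 and 182 FPKM in Ctrl and to 41.1, 40.05 and 32.2 FPKM in LIP, with *Lck* the most abundant over all 6 libraries, though *Trac* led in each Ctrl library, and 8 of 8 lower. Monocyte and platelet markers showed the opposite order. The 9 monocyte markers summed to 185, 184 and 199.9 FPKM in Ctrl and to 312, 334 and 310.1 FPKM in LIP, with *Ly6c2* the most abundant and 9 of 9 higher. The 6 platelet markers summed to 745, 1004 and 921 FPKM in Ctrl and to 1610.1, 1609 and 1872 FPKM in LIP, with the chemokine gene *Ppbp* the most abundant and 6 of 6 higher.

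The remaining lists follow. Markers of neutrophil precursors summed to 1806, 2117 and 1803 FPKM in Ctrl and to 2491, 2652 and 2477 FPKM in LIP, led by the granule gene *Ngp*, with 4 of 6 tested markers higher. The 4 were *Camp*, *Ltf*, *Ngp* and *Chil3*. Scarce markers of this list had lower means in LIP, apart from *Ctsg*. Mean FPKM in Ctrl and LIP was 1.92 and 0.607 for *Elane* and 1.28 and 1.02 for *Prtn3*, both not called. It was 0.821 and 0.067 for *Mpo* and 0.233 and 0 for *Ms4a3*, both not tested. Natural killer cell markers summed to 214, 262 and 228 FPKM in Ctrl and to 224, 238 and 219 FPKM in LIP, overlapping between groups, led by *Gzma*, with 3 of 6 higher. Dendritic cell markers summed to 5.12, 8.51 and 4.45 FPKM in Ctrl and to 9.997, 14.2 and 11.5 FPKM in LIP, led by *Cd209a*, the only one tested and higher in LIP. Eosinophil and basophil markers were also scarce. They summed to 13.7, 8.37 and 9.49 FPKM in Ctrl and to 15.6, 13.4 and 19.0 FPKM in LIP, led by *Siglecf*, with 1 of 5 tested markers higher. No listed marker of any of these lists was at 0 in all 6 libraries. The part of cell composition in the Ifitm values below was not tested.

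Over all 10440 genes tested, edgeR's quasi-likelihood test called 2766 genes higher (26.5%) and 2835 lower (27.2%) in LIP at a Benjamini-Hochberg adjusted p below 0.05, and in 3161 genes (30.3%) every LIP library lay above every Ctrl library in CPM (counts scaled to the TMM-adjusted library total). This split depended on the scaling. With library totals in place of TMM, 1919 genes were higher and 4146 lower, and with scaling on the neutrophil markers 65 were higher and 9209 lower. Across all genes the median log2 fold change stood at -0.09 with TMM, -0.42 with library totals and -1.89 with scaling on the neutrophil markers, which took the log2 fold change of a typical gene down by 1.80. On that scale the erythroid, B cell and T cell markers were lower as before, but 8 of 9 monocyte, 6 of 6 platelet, 6 of 6 precursor and 6 of 6 natural killer cell markers were called lower as well. Fold changes below use TMM unless stated otherwise.

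*Ifitm1* (ENSMUSG00000025491, chr7:140967221-140969825, plus strand, GRCm38) encodes the family member known mainly from the plasma membrane. Its level was 259, 305 and 299.96 FPKM in Ctrl replicates 1 to 3 and 1346, 1441 and 1352 FPKM in LIP replicates 1 to 3. The LIP libraries lay close together and far above Ctrl, the lowest LIP library being 5.39 times the highest Ctrl library in CPM. The mean was 288 ± 24.8 FPKM in Ctrl and 1379.7 ± 52.9 FPKM in LIP (SD, n = 3). The log2 fold change was 2.57 ± 0.10 (SE), or 5.92-fold, the 38th largest of the 10440 genes.

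*Ifitm2* (ENSMUSG00000060591, chr7:140954837-140955987, minus strand) encodes an endosomal member and was the most abundant of the 4 in every library. Its level was 1027, 1356 and 1435 FPKM in the Ctrl libraries and 4302, 3383 and 4156 FPKM in the LIP libraries. Within Ctrl, replicate 1 was low, and within LIP, replicate 2 was low, but the groups did not overlap. The mean was 1273 ± 216 FPKM in Ctrl and 3947 ± 494 FPKM in LIP (SD, n = 3), with a log2 fold change of 1.94 ± 0.14 (SE), or 3.83-fold.

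*Ifitm3* (ENSMUSG00000025492, chr7:141009586-141010770, minus strand) encodes the late endosomal protein best known for restricting influenza virus. Its level was 528, 646 and 546 FPKM in the Ctrl libraries and 1418, 1494 and 1429.8 FPKM in the LIP libraries. Every LIP library lay above every Ctrl library, and the LIP libraries differed little among themselves. The mean was 573 ± 63.4 FPKM in Ctrl and 1447 ± 41.2 FPKM in LIP (SD, n = 3). Its log2 fold change was 1.64 ± 0.10 (SE), or 3.12-fold, with TMM, but its sign flipped to -0.16 with scaling on the neutrophil markers.

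*Ifitm6* (ENSMUSG00000059108, chr7:141015699-141017924, minus strand) encodes a less studied mouse member and was the least abundant of the 4. Its level was 77.9, 72.9 and 74.8 FPKM in the Ctrl libraries and 226, 241 and 226 FPKM in the LIP libraries. The spread was narrow in both groups, which did not overlap. The mean was 75.2 ± 2.51 FPKM in Ctrl and 231 ± 8.83 FPKM in LIP (SD, n = 3), with a log2 fold change of 1.93 ± 0.10 (SE), or 3.80-fold. For all 4 members, every LIP library was thus above every Ctrl library, a pattern shown by 30.3% of all genes tested and fixed here by the choice of the members.

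**Figure D1:**
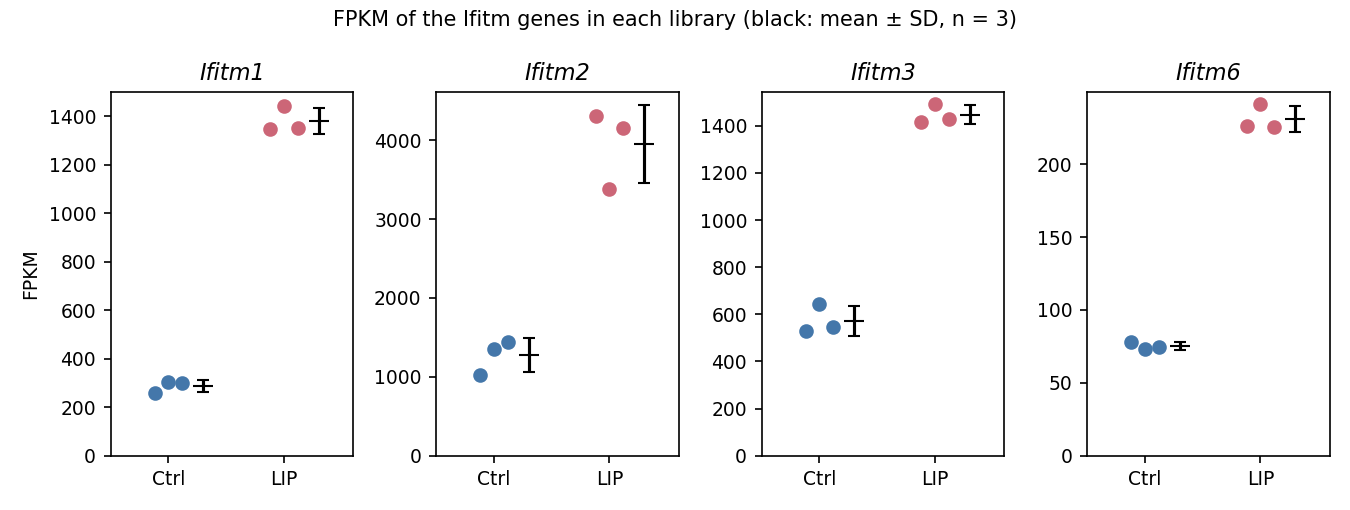
FPKM of *Ifitm1*, *Ifitm2*, *Ifitm3* and *Ifitm6* in the 3 Ctrl and 3 LIP libraries (points, with linear axes from 0), with the mean and SD of each group in black. Every LIP library lies above every Ctrl library for each gene on this scale, whereas *Ifitm3* flips to a log2 fold change of -0.16 and the others stay above 0 with scaling on the neutrophil markers.

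The choice of scaling moved all 4 fold changes together. With library totals, the log2 fold changes of *Ifitm1*, *Ifitm2*, *Ifitm3* and *Ifitm6* were 2.25, 1.62, 1.32 and 1.61, and with scaling on the neutrophil markers they were 0.77, 0.15, -0.16 and 0.13. On that last scale only *Ifitm1* differed from 0 by more than 0.2, although the median of all genes was -1.89.

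**Figure D2:**
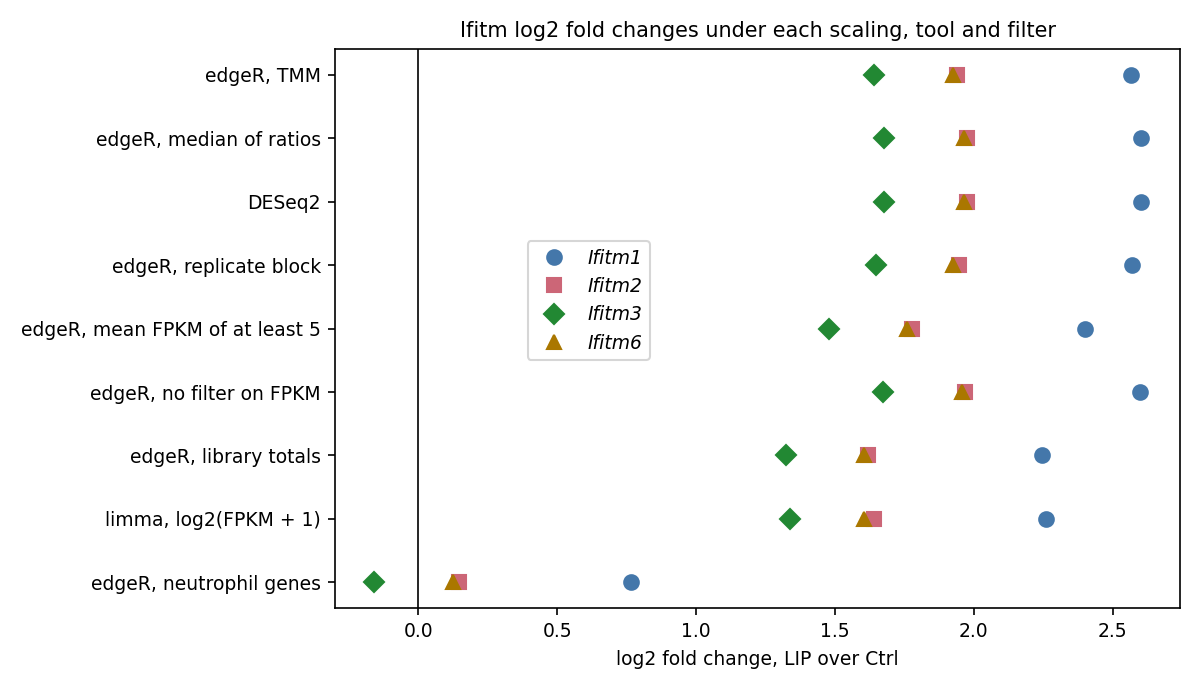
Log2 fold change of LIP over Ctrl (horizontal axis) of the 4 Ifitm genes under each scaling, tool and filter (vertical axis). With scaling on the neutrophil markers the values lie between -0.16 for *Ifitm3*, whose sign flips, and 0.77 for *Ifitm1*.

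Ratios inside a library need no scaling between libraries. As a percentage of the summed FPKM of the 16 neutrophil markers, *Ifitm1* was 1.64, 1.59 and 1.67 in Ctrl and 2.45, 2.44 and 2.51 in LIP. *Ifitm3* was 3.33, 3.38 and 3.04 in Ctrl and 2.58, 2.53 and 2.65 in LIP. On this measure *Ifitm1* was higher and *Ifitm3* lower in every LIP library than in every Ctrl library. Most of the marker sum, however, came from *S100a8* and *S100a9*. Their means were 6987 and 7101 FPKM in Ctrl, where the sum averaged 17650 FPKM. In LIP they were at 21792.5 and 23491.5 FPKM, where the sum averaged 55915 FPKM. The percentages thus follow these genes more than the other markers. *Ifitm2* was at 7.18 ± 0.758 in Ctrl and 7.09 ± 1.18 in LIP, and *Ifitm6* at 0.429 ± 0.0559 and 0.413 ± 0.00478 (SD, n = 3), both overlapping between groups. The 4 genes are not among these markers, and their own sum equalled 12.5 ± 0.589% of the neutrophil marker sum in Ctrl and 12.6 ± 1.25% in LIP.

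The order of levels per length in Ctrl was *Ifitm2*, *Ifitm3*, *Ifitm1* and *Ifitm6*, with no overlap between neighbours. In LIP, *Ifitm2* was again highest and *Ifitm6* lowest, while *Ifitm3* at 1447 ± 41.2 FPKM and *Ifitm1* at 1379.7 ± 52.9 FPKM had overlapping ranges. Within each LIP library, however, *Ifitm1* was slightly below *Ifitm3* in FPKM. The ratio of *Ifitm1* to *Ifitm3* was 0.492, 0.472 and 0.549 in Ctrl and 0.950, 0.964 and 0.946 in LIP. Per length, *Ifitm1* thereby came close to the level of *Ifitm3* in LIP. In CPM, which is not scaled to gene length, the order of these genes reversed between groups. Mean CPM of *Ifitm1* and *Ifitm3* was 306 and 377 in Ctrl and 1811 and 1177 in LIP.

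Shares of the summed FPKM of the 4 genes showed the same shift. *Ifitm1* made up 13.1 ± 0.546% of the sum in Ctrl and 19.8 ± 1.91% in LIP, while *Ifitm3* made up 26.1 ± 2.53% and 20.7 ± 1.80% (SD, n = 3). The shares of both were separate between groups, the *Ifitm3* share only narrowly, with 23.2% in the lowest Ctrl library and 22.8% in the highest LIP library. *Ifitm2* held 57.4 ± 3.34% and 56.2 ± 4.03%, and *Ifitm6* 3.45 ± 0.577% and 3.31 ± 0.319%, with overlap between groups. The 4 genes took 0.174 ± 0.0210% of all counts in Ctrl and 0.568 ± 0.0280% in LIP. Among the 10440 genes ranked by mean FPKM, *Ifitm2* was at rank 39 in Ctrl and 23 in LIP, *Ifitm3* at 73 and 40, *Ifitm1* at 160 and 42, and *Ifitm6* at 555 and 225.

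The low *Ifitm2* values in Ctrl replicate 1 and LIP replicate 2 coincided with an overlapping gene. *Gm45717* (ENSMUSG00000110104, chr7:140949222-140955937) is a gene model on the same strand with 2 exons in GENCODE M21. All 268 bases of its first exon (chr7:140955670-140955937) lie in exon sequence of *Ifitm2*, and all 227 bases of its last exon (chr7:140949222-140949448) lie in exon sequence of *Ifitm5*. It was the only listed gene that overlapped a member.

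The count of *Gm45717* was 9604, 6 and 942 in Ctrl replicates 1 to 3 and 2690, 32520 and 2558 in LIP replicates 1 to 3. It was highest in exactly the library of each group in which *Ifitm2* was lowest. *Gm45717* made up 19.9% of the summed count of both genes in Ctrl replicate 1 and 19.4% in LIP replicate 2, against at most 1.74% in the other 4 libraries. The summed count gave 801, 874 and 930.1 CPM in Ctrl and 3454, 3288.5 and 3311 CPM in LIP. With the sum, the coefficient of variation was 7.47% in Ctrl and 2.68% in LIP, where that of *Ifitm2* alone was 18.2% and 12.8%. The log2 fold change of the sum was 1.95 ± 0.08 (SE), against 1.94 ± 0.14 for *Ifitm2* alone, a comparison chosen after seeing the data. How the counting tool divided reads between these genes is not given in the sources used here.

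The members resemble each other in sequence, which also limits how far reads can be assigned. In GENCODE M21, *Ifitm2* and *Ifitm3* have 1 transcript each and *Ifitm1* and *Ifitm6* have 3 each. The longest coding sequences, without the stop codon, were 318, 432, 411 and 372 bases for *Ifitm1*, *Ifitm2*, *Ifitm3* and *Ifitm6*. In global alignments, *Ifitm1* and *Ifitm3* were identical at 81.6% of aligned coding bases, *Ifitm1* and *Ifitm2* at 81.4%, and *Ifitm2* and *Ifitm3* at 79.4%. *Ifitm6* stood further off, with 61.6% to 66.4% identity to the other members.

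Windows of 50 bases from the members' transcripts were searched in the transcripts of all other genes on both strands. *Ifitm2* shared 294 of 606 windows with another gene, 219 of them with *Gm45717*, 90 with *Gm11951*, 75 with *Gm8865* and 20 with *Ifitm3*, where a window can be shared with several genes. *Ifitm3* shared 63 of 629 windows, 29 of them with *Gm7676*, 20 each with *Ifitm2*, *Gm45717* and *Gm11951*, and 15 with *Ifitm1*. *Ifitm1* shared 53 of 1056 windows, mostly with the gene model *Gm7676*. *Ifitm6* shared none of its 854 windows. The values of *Ifitm2* are accordingly the least certain of the 4 and those of *Ifitm6* the most distinct by sequence, at this window length and with reads of 150 bases.

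All 4 members lie on chromosome 7 within 63088 bases, in the order *Ifitm2*, *Ifitm1*, *Ifitm3* and *Ifitm6*, with *Ifitm1* alone on the plus strand. *Ifitm2* and *Ifitm1* are separated by 11233 bases, *Ifitm1* and *Ifitm3* by 39760 bases, and *Ifitm3* and *Ifitm6* by 4928 bases. Within 200 kb on either side of this stretch, 26 other genes were listed and 13 were tested by edgeR. Of these, 3 were called higher and 2 lower in LIP (background 26.5% and 27.2% of all genes), with a median log2 fold change of 0.40 against -0.09 over all genes.

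The genes called higher were *Ifitm5* (log2 fold change 2.003 ± 0.43, adjusted p = 0.00269), *Pgghg*, which encodes a collagen glucosidase (0.99 ± 0.24, adjusted p = 0.00617), and *Rnh1*, the ribonuclease inhibitor (0.72 ± 0.13, adjusted p = 0.00119). Those called lower were *Pkp3*, a desmosomal plakophilin (-1.43 ± 0.30, adjusted p = 0.00265), and *Sigirr*, an inhibitory member of the interleukin-1 receptor family (-1.42 ± 0.23, adjusted p = 0.000438). In each of these 5 genes the LIP libraries were all on the same side of every Ctrl library. Not called were *Bet1l* (0.16), *Ric8a* (0.40), *Sirt3* (0.64), *Psmd13* (-0.16), *Gm15542* (0.29), *Gm45717* (2.08), *Gm5905* (1.04) and *Hras* (0.13), given as log2 fold changes. With scaling on the neutrophil markers none of the 13 was higher and 10 were lower, and DESeq2 called 5 higher.

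**Figure D3:**
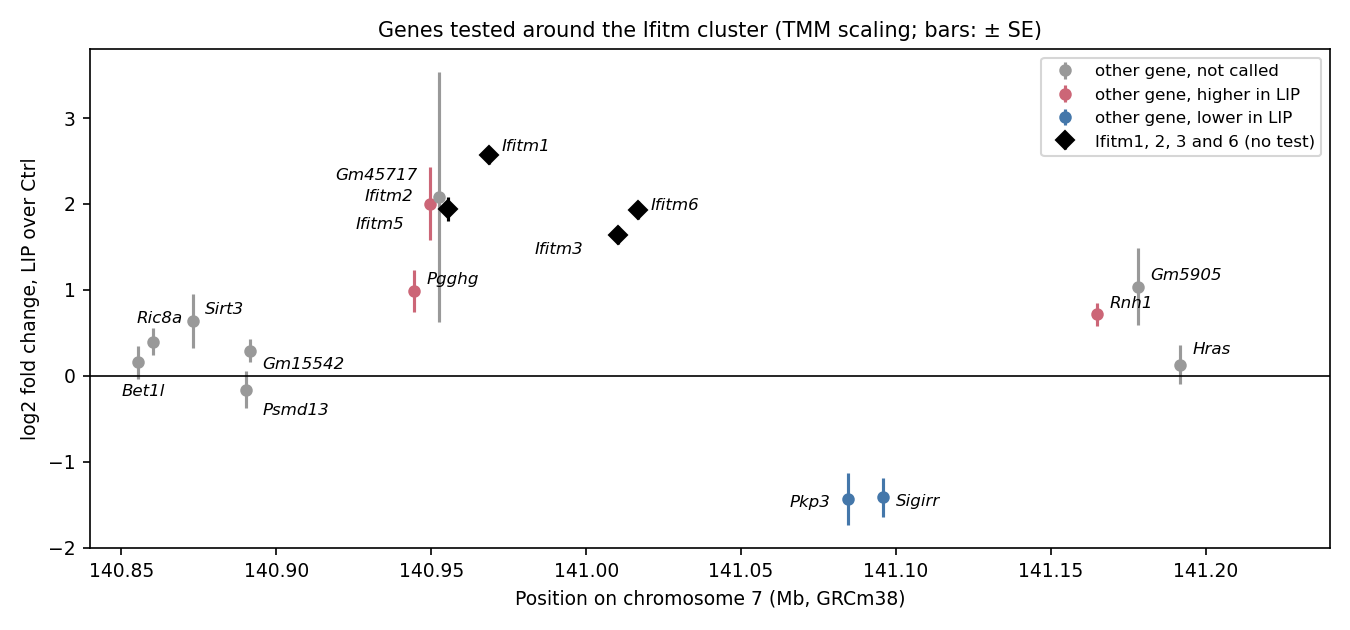
Log2 fold change of LIP over Ctrl (vertical axis, TMM scaling, bars ± SE) of the genes tested around the Ifitm cluster, at their midpoints on chromosome 7 (horizontal axis, Mb, GRCm38). *Ifitm1*, *Ifitm2*, *Ifitm3* and *Ifitm6* (black, no test) lie between 1.64 and 2.57 on this scale, *Ifitm3* flipping to -0.16 with scaling on the neutrophil markers, and *Pkp3* and *Sigirr* lie below -1.

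Other genes named Ifitm were much less abundant. *Ifitm5*, known from osteoblasts and bone mineralization, had counts of 87, 53 and 46 in Ctrl and 260, 190 and 171 in LIP, and its last exon overlaps *Gm45717*, so its reads are uncertain. The level of *Ifitm5* was 1.40 ± 0.496 FPKM in Ctrl and 4.54 ± 0.916 FPKM in LIP (SD, n = 3). *Ifitm10*, outside the cluster on the same chromosome, was at 3.14 ± 0.816 and 3.23 ± 0.529 FPKM and was not called (log2 fold change 0.35 ± 0.25, edgeR adjusted p = 0.251). *Ifitm7*, on chromosome 16, had 22 counts in Ctrl replicate 1 and 0 in the other 5 libraries and was not tested. A list of 12 gene names of the wider CD225 family, to which IFITM proteins belong, included *Ifitm5*, *Ifitm7* and *Ifitm10*. Of the 12 names, 8 were listed and only *Ifitm5* and *Ifitm10* passed the filter. Their log2 fold changes were 0.20 and -1.44 when scaled on the neutrophil markers.

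The 4 genes moved in the same direction with TMM scaling, which was fixed by their choice, although *Ifitm3* flips with scaling on the neutrophil markers. Their promoter sequences are shown as a description. They come from RefSeq (GRCm38.p6), cover 250 bases before to 50 bases after the annotated start, and matched all 4 members. Searched on both strands were the interferon-stimulated response element (ISRE) as GAAA, any 2 bases and GAAA, the composite element of ETS and IRF factors (EICE) as GGAA, any 2 bases and GAAA, and the gamma-activated site (GAS) as TTC, any 3 bases and GAA, all chosen after the sequences had been seen. Of 32851 promoters of this length, 3.44% held an ISRE match, 2.72% an EICE match and 8.3% a GAS match. Capitals mark the matches. The windows are chr7:140967826-140968125 on the plus strand for *Ifitm1* and, on the minus strand, chr7:140955912-140956211 for *Ifitm2*, chr7:141010695-141010994 for *Ifitm3* and chr7:141016843-141017142 for *Ifitm6*.
Ifitm1: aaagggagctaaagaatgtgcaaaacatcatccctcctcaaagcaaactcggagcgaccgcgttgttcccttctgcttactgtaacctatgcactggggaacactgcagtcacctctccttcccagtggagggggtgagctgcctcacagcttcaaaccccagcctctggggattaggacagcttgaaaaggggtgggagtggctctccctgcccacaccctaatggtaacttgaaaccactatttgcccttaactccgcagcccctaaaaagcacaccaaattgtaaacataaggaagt
Ifitm2: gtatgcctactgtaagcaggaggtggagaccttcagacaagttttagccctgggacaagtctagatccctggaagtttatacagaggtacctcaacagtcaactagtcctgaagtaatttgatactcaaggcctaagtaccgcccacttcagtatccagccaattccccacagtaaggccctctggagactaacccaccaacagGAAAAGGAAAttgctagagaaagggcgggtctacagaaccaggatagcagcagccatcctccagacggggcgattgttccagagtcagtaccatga
Ifitm3: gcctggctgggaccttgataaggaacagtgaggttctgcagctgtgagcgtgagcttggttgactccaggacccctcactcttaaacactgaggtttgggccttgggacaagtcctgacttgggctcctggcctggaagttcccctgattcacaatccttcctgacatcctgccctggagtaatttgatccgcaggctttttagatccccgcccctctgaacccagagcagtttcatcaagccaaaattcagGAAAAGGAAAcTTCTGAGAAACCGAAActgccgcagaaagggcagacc
Ifitm6: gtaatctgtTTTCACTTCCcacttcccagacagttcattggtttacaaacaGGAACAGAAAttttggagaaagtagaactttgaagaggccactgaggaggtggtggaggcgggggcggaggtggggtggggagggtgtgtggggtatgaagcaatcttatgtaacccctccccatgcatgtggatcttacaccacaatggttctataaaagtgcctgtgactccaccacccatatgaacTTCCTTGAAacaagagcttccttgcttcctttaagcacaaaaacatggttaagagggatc

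*Ifitm2* held 1 ISRE match, GAAAAGGAAA at chr7:140955998-140956007, before the start. *Ifitm3* held 2 ISRE matches after the start, GAAAAGGAAA at chr7:141010733-141010742 and GAAACCGAAA at chr7:141010716-141010725. The second of these shared 3 bases with a GAS match at chr7:141010723-141010731. *Ifitm6* held 2 EICE matches, GGAACAGAAA at chr7:141017082-141017091 and TTTCACTTCC, on the opposite strand, at chr7:141017124-141017133, and a GAS match at chr7:141016894-141016902. The window of *Ifitm1*, the member with the largest fold change, held none of the 3 motifs. The windows of *Ifitm1* and *Ifitm6* each surround a single annotated start, which lies inside the gene as listed, and the other starts of their 3 transcripts each were not searched. A match describes letters in a window, and factor binding was not measured here.

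Of 20 interferon ligand genes, 9 were listed and only *Ifng*, the type II interferon, passed the filter. Its level was 16.9 ± 2.95 FPKM in Ctrl and 10.7 ± 2.58 FPKM in LIP (SD, n = 3), not overlapping in FPKM but overlapping in CPM, and it was not called by edgeR with TMM scaling (log2 fold change -0.36 ± 0.25, adjusted p = 0.247, with an unadjusted p also above 0.05). DESeq2 did not call it either, whereas limma on log2(FPKM + 1) called it lower, as did edgeR with library totals (-0.67, adjusted p = 0.0387) and with scaling on the neutrophil markers (-2.16, adjusted p = 1.09e-05). *Ifnb1*, named after its values were seen, had counts of 0, 4 and 19 in Ctrl and 106, 19 and 49 in LIP and was not tested. Its mean was 0.131 CPM in Ctrl and 1.17 CPM in LIP, and the groups overlapped in FPKM. Other untested ligand genes were also scarce, with *Ifna2*, *Ifna5* and *Ifna6* higher in mean CPM in Ctrl and *Ifna4*, *Ifna9* and *Ifnl3* higher in LIP.

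Receptors and Janus kinases, which receive the interferon signal, were mostly higher in LIP with TMM scaling. Of 7 genes, 5 were called higher (26.5% of all genes were), and the median of the 7 was 0.50 on the log2 scale, beside -0.09 for all genes. The largest changes were in *Ifngr2* (1.09 ± 0.12, adjusted p = 3.08e-05) and *Ifnar2* (0.97 ± 0.11, adjusted p = 4.09e-05), subunits of the type II and type I receptors, and in the other type I subunit *Ifnar1* (0.62 ± 0.16, adjusted p = 0.00829). The remaining called genes, *Ifngr1* (0.33) and *Jak1* (0.50), are named after their values were seen. In CPM all 5 had every LIP library above every Ctrl library, whereas in FPKM the groups overlapped in *Ifngr1*, *Jak1* and *Ifnar1*. Only 2 were called higher with library totals and, separately, with limma on log2(FPKM + 1). Only 3 were called higher with a filter at a mean of 5 FPKM and without either Ctrl replicate 3 or LIP replicate 3. DESeq2, the replicate block and leaving out Ctrl replicate 1 each gave 6 higher. All 7 were called lower with scaling on the neutrophil markers.

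Transcription factors of the pathway were split. Of 9 genes, 5 were called higher and 1 lower, beside 26.5% and 27.2% of all genes, with a median of 0.52 beside -0.09. *Stat3*, which serves many cytokines, had the largest rise (1.34 ± 0.11, adjusted p = 4.58e-06), followed by the interferon regulatory factors *Irf7* (1.16 ± 0.13, adjusted p = 3e-05) and *Irf1* (1.14 ± 0.11, adjusted p = 1.54e-05). *Irf8*, a factor of monocytes, dendritic cells and B cells, was lower at -1.15 ± 0.11 (adjusted p = 1.07e-05). *Irf9* (1.11), named after its values were seen, was also called higher. Groups did not overlap in CPM or FPKM in any of these named genes. With scaling on the neutrophil markers all 9 factors were called lower, and with library totals 4 were higher and 2 lower. Limma on log2(FPKM + 1) also gave 4 higher and 2 lower. The replicate block gave 6 higher and 2 lower, and a filter at a mean of 5 FPKM gave 5 higher and 2 lower.

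Feedback inhibitors, which dampen the signal, gave 3 genes higher and 1 lower of 6, beside 26.5% and 27.2% of all genes, with a median of 0.37 beside -0.09. *Socs3*, an inhibitor of cytokine receptors, was highest at 1.82 ± 0.12 (adjusted p = 8.54e-07), followed by the ISG15 protease *Usp18* (1.14 ± 0.16, adjusted p = 0.000168) and the phosphatase *Ptpn6* (0.51 ± 0.08, adjusted p = 0.000451). *Socs1*, which binds Janus kinases, was lower at -0.55 ± 0.16 (adjusted p = 0.0149), a call lost without LIP replicate 2. In all 4 genes the groups did not overlap in CPM or FPKM. With library totals 2 were higher, the call of *Ptpn6* being lost (0.20, edgeR adjusted p = 0.0507). No gene was higher and 5 were lower with scaling on the neutrophil markers, where *Socs3* was at 0.03.

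Other interferon-stimulated effectors were the largest list. Of 33 genes, 32 were listed and 30 tested, and edgeR called 24 of the 30 higher in LIP, beside 26.5% of all genes, and the list's median was 1.02 on the log2 scale, beside -0.09. The remaining 6 were not called. The largest changes were in the oligoadenylate synthetase genes *Oas1g* (2.26 ± 0.21, adjusted p = 8.14e-06) and *Oas3* (1.88 ± 0.20, adjusted p = 2.88e-05) and in the chaperone gene *Rtp4* (1.77 ± 0.12, adjusted p = 1.39e-06), each with every LIP library above every Ctrl library. *Ifitm1* was above all 30 in log2 fold change, and *Ifitm2*, *Ifitm3* and *Ifitm6* were above the median of the list. In level, *Rtp4* was at 47.3 ± 5.77 FPKM in Ctrl and 131 ± 5.53 FPKM in LIP (SD, n = 3), below *Ifitm1*, *Ifitm2* and *Ifitm3* in each group, whereas *Ifi27l2a* of the same list was at 329 ± 35.8 FPKM in Ctrl, above *Ifitm1*, and at 519 ± 31.8 FPKM in LIP, below it. This direction depended on the scaling, since 20 of the 30 were called higher and 1 lower with library totals, and 20 were called lower and none higher with scaling on the neutrophil markers, where their median was -0.78.

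Of 6 other membrane factors that restrict viruses, 5 were listed and 4 tested, and edgeR with TMM scaling and no replicate block called none, with 2 at an unadjusted p under 0.05. DESeq2 called 1 higher, limma on log2(FPKM + 1) called 1 lower, and edgeR called 2 higher without Ctrl replicate 1 and, separately, with the replicate block, 1 higher without Ctrl replicate 2, and 1 lower with a filter at a mean of 5 FPKM. The result depended on the scaling, since edgeR called 1 of the 4, *Serinc3*, higher with median-of-ratios factors (0.40, adjusted p = 0.0322), another, *Ly6e*, lower with library totals, and all 4 lower with scaling on the neutrophil markers. *Ly6e*, a lipid-anchored protein that interferes with coronavirus fusion, was the most abundant at 517 ± 33.3 FPKM in Ctrl and 367 ± 11.6 FPKM in LIP (SD, n = 3), with a log2 fold change of -0.19 ± 0.08 (adjusted p = 0.0686). Its level per length was thus near that of *Ifitm3* in Ctrl and far below it in LIP. The difference between this list and the members was not tested.

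Enzymes and partners of IFITM proteins, such as the palmitoyltransferase *Zdhhc20*, the ubiquitin ligase *Nedd4* and the AP-2 adaptor that takes the proteins into endosomes, were tested in full. Of 15 genes, 4 were called higher and 2 lower, beside 26.5% and 27.2% of all genes, with a median of 0.12 beside -0.09. Higher were the tetraspanin *Cd9* (1.33 ± 0.10, adjusted p = 1.93e-06), the AP-2 subunit *Ap2a2* (0.73 ± 0.15, adjusted p = 0.00187), the cholesterol-trafficking partner *Vapa* (0.36 ± 0.10, adjusted p = 0.0116) and, named after its values were seen, *Ap2m1* (0.26). Lower were the kinase *Fyn* (-0.81 ± 0.12, adjusted p = 0.00021) and the tetraspanin *Cd81* (-0.75 ± 0.15, adjusted p = 0.00165). In CPM the groups did not overlap in these 6 genes, whereas in FPKM they overlapped in *Vapa* and *Ap2m1*. Only 2 were called higher without either Ctrl replicate 3 or LIP replicate 3, and limma on log2(FPKM + 1) called 1 higher and 3 lower. With library totals 2 were higher and 4 lower, with a median of -0.20, and all 15 were lower with scaling on the neutrophil markers.

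Profiles of the members were compared with those of 3387 genes of at least 10 FPKM by the root mean square difference of centred log2(CPM + 1) over the 6 libraries. This distance depends largely on the fold change of LIP over Ctrl, the contrast on which the members were chosen. For example, *Cdkn2d* and *Fcgr3* had log2 fold changes of 1.66 and 1.67, beside 1.64 for *Ifitm3*. Nearness thus mainly describes similar fold changes, and shared regulation was not tested. Nearest to *Ifitm1* were *Wfdc17*, *Lrg1* and the neutrophil collagenase gene *Mmp8*, at 0.093, 0.093 and 0.095. The chemokine gene *Cxcl1*, *Msrb1* and the formyl peptide receptor gene *Fpr2* were nearest to *Ifitm2*, at 0.13, 0.13 and 0.14, a ranking that rests on the counts of *Ifitm2* alone, with its low values in Ctrl replicate 1 and LIP replicate 2, and was not repeated with *Gm45717* added. Among the genes nearest to *Ifitm3* were *Cdkn2d* and the Fc receptor gene *Fcgr3*, at 0.034 and 0.037. *Ifitm6* was nearest to the histidine decarboxylase gene *Hdc*, *Cd300lf* and the cytokine gene *Osm*, at 0.032, 0.036 and 0.042. No member was among the nearest genes of another. By distance the closest members were *Ifitm3* and *Ifitm6*, at 0.175. By rank the closest was *Ifitm6* seen from *Ifitm1*, at rank 64 but a distance of 0.343. *Mmp8* and *Fpr2* are also on the list of neutrophil markers.

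The table's Gene Ontology annotation assigned 10 terms to all 4 members, among them the type I interferon signaling pathway, the response to interferon-gamma and the negative regulation of viral entry into host cells. Counts below are of other tested genes with TMM scaling, beside 26.5% higher and 27.2% lower over all genes, and some genes carry several of the terms. Type I interferon signaling had 7 higher of 11, and negative regulation of viral genome replication had 17 higher and 5 lower of 29. Defense response to virus had 59 higher and 20 lower of 125. The responses to interferon-alpha and interferon-beta had 4 and 3 higher and 2 lower each of 8. The response to interferon-gamma had 3 higher and 7 lower of 16, and negative regulation of viral entry had 2 higher and 2 lower of 12. The other 3 terms name only membranes, and none of these counts was tested against other genes. *Gm45717* carries these terms as well.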

How the data were processed

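Gene expression was measured in 6 Smart-seq2 libraries, grouped by their labels into Ctrl and LIP (labelled by the ligature). For each gene the authors deposited a count of reads, not normalized, and an FPKM value in each library, with GRCm38 coordinates. The submitters' processing notes name FastQC and cutadapt 1.9, and the aligner, the counting tool and the use of strand are not given in the sources used here. Smart-seq2 reads carry no molecular identifiers, so counts are not independent molecules.

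Counts were tested with edgeR 4.0.16 (R 4.3.3) by the quasi-likelihood test with TMM factors and no replicate block, over the 10440 genes whose FPKM averaged 1 or more, with Benjamini-Hochberg adjustment over all of them. Each standard error was obtained from the fold change on the log2 scale and the F statistic. CPM values use the TMM-scaled library total. DESeq2 1.42.0, limma 3.58.1, other scalings and filters, a replicate block and leaving out each library were alternatives, and scripts were tested on simulated data. Total counts lay between 52186555 and 57262379. Adding *Gm45717* to *Ifitm2* was chosen after seeing the data. Sequences were compared with GENCODE M21 transcripts and Biopython 1.88. Where a gene name occurs on several rows, as 50 do, the row with the highest mean FPKM was used.

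The members and lists were chosen with earlier results of these data known. Named are the members, other Ifitm genes, tested genes within 200 kb, up to 3 called genes per direction and list with the largest change, the most abundant gene of a list without calls and of each cell type list, and the 3 genes nearest to each member by profile. Some results for single genes are left out of the text. Bone marrow, single-cell and cytometry data were not analysed here.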

Additional observations from a re-analysis of the deposited data

How the results depend on the processing

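The log2 fold changes of *Ifitm1*, *Ifitm2* and *Ifitm6* were above 0 in every alternative run, and that of *Ifitm3* in every alternative except scaling on neutrophil genes, where it reversed to -0.16 because that scaling sets the rise of the neutrophil markers to 0. In the same order of genes, values were 2.25, 1.62, 1.32 and 1.61 with library totals, 2.26, 1.64, 1.34 and 1.61 with limma on log2(FPKM + 1), 2.26, 1.64, 1.34 and 1.62 with limma on log2(FPKM + 0.1), and 0.77 (*Ifitm1*), 0.15 (*Ifitm2*) and 0.13 (*Ifitm6*) with scaling on neutrophil genes. With a filter at a mean FPKM of 5, *Ifitm1*, *Ifitm3* and *Ifitm6* were at 2.40, 1.48 and 1.76. Leaving out each library gave 2.49 to 2.64 for *Ifitm1*, 1.80 to 2.04 for *Ifitm2*, 1.58 to 1.77 for *Ifitm3* and 1.896 to 1.94 for *Ifitm6*. Median-of-ratios factors, DESeq2 and no filter moved each value by less than the spread between replicates, as did adding *Gm45717* counts to *Ifitm2* (1.95).

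Over all genes, 65 were higher and 9209 lower with scaling on neutrophil genes, and 1768 higher and 1869 lower with the FPKM filter at 5, where fewer genes were tested. Leaving out each library gave 2419 to 2615 higher and 2255 to 2770 lower genes, and fewer samples entered those fits. Near the cluster, 0 genes were higher and 10 lower with scaling on neutrophil genes, 5 were higher with DESeq2, and 1 was higher and 1 lower with the FPKM filter at 5. Leaving out each library gave 3 to 4 higher and 2 lower there. Other shifts than those explained were not traced, and the cause was not tested.

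The replicate block gave 2724 higher and 2822 lower genes and log2 fold changes of 2.57, 1.95, 1.65 and 1.93 for the members. Libraries with the same number correlated at 0.021, 0.056 and 0.036 in their deviations from the group means, and the numbers are labels of different pools, so they do not pair the samples. Depth was similar in all libraries, and the division of reads between *Ifitm2* and *Gm45717* adds an uncertainty that depth does not show.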
